A study of Mus musculus with 8 samples.

Results

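The 10 genes described here are imprinted genes with roles in fetal growth: H19, Meg3, Rian, Mirg, Cdkn1c and Grb10, which are known for maternal expression, and Dlk1, Peg3, Peg10 and Mest, which are known for paternal expression. They were chosen by name, and each name matched 1 of the 34299 gene rows of the count table. Grb10 is maternally expressed in most tissues and paternally expressed in neurons, and is kept here with the maternal genes. Counts per gene do not separate the parental copies, so the parent of origin is background here and was not measured.

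Imprinted genes are transcribed mainly from a single parental chromosome, according to DNA methylation laid down in the egg or the sperm. Neighbouring imprinted genes often share a control region, and many form pairs in which a coding gene is expressed from the chromosome of one parent and a noncoding RNA from that of the other. Many paternally expressed genes promote fetal growth and many maternally expressed genes restrain it. In the brain several of them are high in progenitors and young neurons and fall after birth.

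RNA was measured by bulk sequencing of polyadenylated RNA from whole mouse brain in 8 libraries. There were 3 libraries from wild-type (WT) fetuses at gestation day 15, 3 from Cav1 knockout (KO) fetuses at the same day and 2 from Cav1 KO brains at week 70. Cav1 encodes caveolin-1, the coat protein of the membrane pits called caveolae. Strain, sex, the design of the Cav1 allele and whether animals were pooled are not given in the sources used here. The labels speak of biological replicates for the fetal brains, and nothing says whether the week 70 libraries came from separate animals, so p-values with that group measure the spread between these libraries, which may be technical. WT brains of week 70 were not analysed here. Genotype and age therefore cannot be told apart in the comparison of KO brains at week 70 with WT fetuses.

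Total counts ranged from 14110031 to 20833397 per library, and every WT fetal library was deeper than every KO fetal library. Cav1 itself had 367, 218 and 329 counts in the WT fetuses, 0, 3 and 1 in the KO fetuses and 1 and 5 in the week 70 KO brains. All 8 neuron markers examined were detected in each group, with summed levels of 4659 to 5190 CPM (counts scaled to library size, after TMM normalisation) in WT fetuses, 3464 to 3556 in KO fetuses and 8187 to 8398 at week 70. These markers did not move together. By the test described below, 2 were higher and 5 lower in KO than in WT fetuses. At week 70, 4 were higher and 4 lower than in KO fetuses, where 37.6% of all tested genes were higher and 44.4% lower. WT replicate 1 stood apart from the other fetal libraries. The summed level of 10 meningeal fibroblast markers was 4530 CPM there, against 321 and 538 in the other WT libraries, 74.1 to 145 in KO fetuses and 101 to 130 at week 70. The 10 cartilage and bone markers summed to 762 CPM in WT replicate 1, against 177 and 194 in the other WT libraries and 64.0 to 67.6 in KO fetuses, where Matn1 was at 0. Red cell markers summed to 1063 to 1346 CPM in WT fetuses, 3553 to 4394 in KO fetuses and 479 to 772 at week 70. Of these 8 markers 6 were higher in KO than in WT fetuses and 2, the globins Hbb-y and Hba-x, were lower. Among all tested genes 30.1% were higher and 32.5% lower in KO fetuses. The choroid plexus markers differed between the week 70 libraries, at 71.4 CPM in replicate 1 and 2404 in replicate 2, and the pituitary markers likewise, at 4.13 and 59.3. In bulk tissue, fewer cells of a type and less RNA per cell cannot be told apart.

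Dlk1 and Meg3 are neighbours on chromosome 12 that are expressed from opposite parental chromosomes, and their promoters are shown because their levels went in opposite directions between the fetal groups. Mest and Grb10 are shown because a promoter of each holds the same short motif as the Meg3 promoter shown. All are RefSeq promoters on GRCm38.p6, from 250 bases before to 50 bases after the start of the gene, and are written 5′ to 3′ on the strand of the gene. Capitals mark TGCCGC, the methylated motif bound by the imprint-protecting factor ZFP57, or its reverse complement GCGGCA, where present.
Dlk1, chr12:109452573-109452872, plus strand: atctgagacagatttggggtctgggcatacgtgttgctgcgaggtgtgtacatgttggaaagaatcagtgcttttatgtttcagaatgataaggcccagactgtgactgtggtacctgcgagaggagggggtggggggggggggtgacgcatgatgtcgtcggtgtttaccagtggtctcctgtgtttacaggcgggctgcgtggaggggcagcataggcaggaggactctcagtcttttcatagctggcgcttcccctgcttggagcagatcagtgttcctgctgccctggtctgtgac
Meg3, chr12:109540746-109541045, plus strand: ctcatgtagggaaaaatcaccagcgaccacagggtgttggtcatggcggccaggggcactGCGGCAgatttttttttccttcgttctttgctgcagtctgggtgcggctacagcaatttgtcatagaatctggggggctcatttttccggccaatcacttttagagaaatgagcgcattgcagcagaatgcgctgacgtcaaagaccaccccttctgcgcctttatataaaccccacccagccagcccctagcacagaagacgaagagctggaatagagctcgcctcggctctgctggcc
Mest, chr6:30737800-30738099, plus strand: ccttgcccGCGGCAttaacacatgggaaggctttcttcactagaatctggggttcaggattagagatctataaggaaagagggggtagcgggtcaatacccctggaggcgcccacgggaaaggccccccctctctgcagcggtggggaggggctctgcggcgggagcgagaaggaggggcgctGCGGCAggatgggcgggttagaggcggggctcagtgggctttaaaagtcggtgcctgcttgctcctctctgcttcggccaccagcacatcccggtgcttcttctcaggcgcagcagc
Grb10, chr11:12037371-12037670, minus strand: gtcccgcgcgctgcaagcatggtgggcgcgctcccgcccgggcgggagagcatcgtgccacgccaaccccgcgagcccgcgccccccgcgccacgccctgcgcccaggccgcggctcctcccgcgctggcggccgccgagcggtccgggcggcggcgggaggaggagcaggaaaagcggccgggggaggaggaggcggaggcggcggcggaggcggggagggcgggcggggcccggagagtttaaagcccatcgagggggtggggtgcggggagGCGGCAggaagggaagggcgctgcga
RefSeq promoters were found for 7 of the 10 genes, 11 promoters in all, and those of H19, Peg10 and Cdkn1c were not matched. The ZFP57 motif was present in 11.6% of 32851 mouse promoters of this length, searched on both strands. It occurred 1 time in the Meg3 and Grb10 promoters shown and 2 times in the Mest promoter shown. It did not occur in the Dlk1, Rian, Mirg or Peg3 promoters. Meg3, Grb10 and Mest each have another promoter without the motif, so the promoters shown for them were picked by its presence. The YY1 motif GCCATNTT, present in 6.05% of all promoters, did not occur in any of the 11. The 2 motifs do not overlap each other. Grb10 had 45 CG dinucleotides in the promoter shown, Mest 17 and Meg3 13, while Peg3 had 13, Mirg 10, Dlk1 9 and Rian 0. The promoters of Grb10, Mest and Meg3 without the motif had 9, 8 and 1. The median was 7 (quartiles 3 and 20) over all promoters. These matches describe the letters only.

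The maternally expressed noncoding RNAs also carry microRNAs, small RNAs that pair with messenger RNAs through their seed, bases 2 to 8. By position on the same strand, H19 holds 1 microRNA hairpin of the RefSeq table, Meg3 1, Rian 3 and Mirg 14, and Mest holds 1. Meg3 also holds the mature mmu-miR-1906, for which no hairpin was matched within it. Examples from each host are shown with the seed in capitals. Libraries of polyadenylated RNA do not measure the mature forms.
mmu-miR-675-5p, in H19: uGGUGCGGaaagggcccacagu
mmu-miR-770-5p, in Meg3: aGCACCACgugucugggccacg
mmu-miR-341-3p, in Rian: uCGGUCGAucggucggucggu
mmu-miR-1188-5p, in Rian: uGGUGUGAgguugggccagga
mmu-miR-370-3p, in Rian: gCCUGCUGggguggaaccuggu
mmu-miR-134-5p, in Mirg: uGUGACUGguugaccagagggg
mmu-miR-453, in Mirg: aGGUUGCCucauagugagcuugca
mmu-miR-496a-5p, in Mirg: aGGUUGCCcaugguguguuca
mmu-miR-335-5p, in Mest: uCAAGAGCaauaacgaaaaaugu
The only seed shared by mature forms of the 5 hosts was GGUUGCC, in mmu-miR-453 and mmu-miR-496a-5p, both within Mirg.

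The first question was how these genes differed between KO and WT brains at day 15. All 10 were abundant enough to be tested. In KO fetuses 3 of them were higher (Meg3, Rian and Mirg), 6 were lower (Cdkn1c, Grb10, Dlk1, Peg3, Peg10 and Mest) and H19 did not pass the test. Calls rest on edgeR's quasi-likelihood test with Benjamini-Hochberg adjusted p below 0.05 over all tested genes, by which 62.6% of the 19147 tested genes were called, 30.1% higher and 32.5% lower. Most tested genes were thus called, and the count alone does not set the 10 genes apart. For 9 of the 10 the libraries of the groups did not overlap, 3 with higher and 6 with lower KO values, against 68.5% of all tested genes, 29.7% higher and 38.7% lower. With upper-quartile scaling 60.8% of all called genes were higher, against 48.1% with TMM, while the members kept the same split of 3 higher and 6 lower. Leaving out WT replicate 1 also gave 3 higher and 6 lower.

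**Figure D1:**
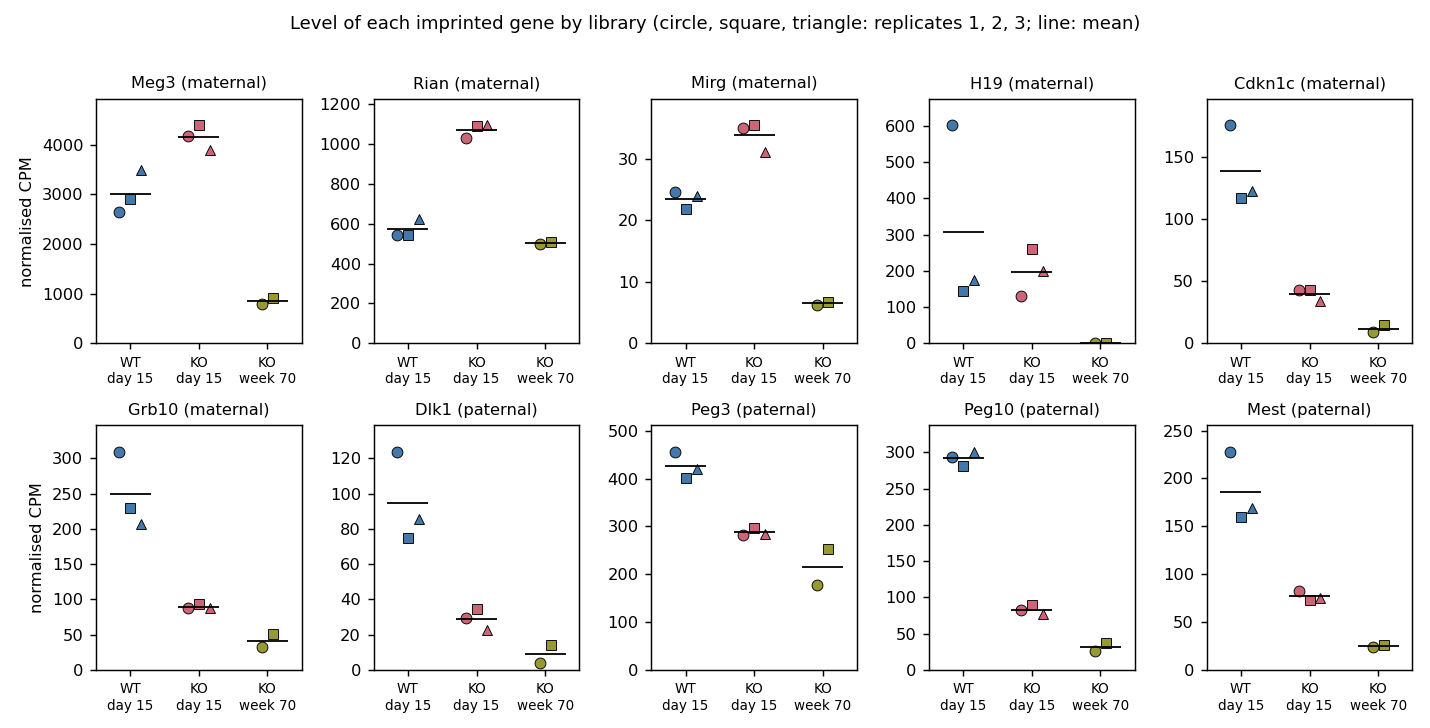
Level of each gene in each library, in TMM-normalised CPM on linear axes that start at 0. Points are libraries, with circles, squares and triangles for replicates 1, 2 and 3, and lines are group means. Meg3, Rian and Mirg are highest in KO fetuses, and 6 genes are highest in WT fetuses with no overlap between the fetal groups.

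By parent of origin, the 4 paternally expressed genes were all lower in KO fetuses, with a median log2 fold change of -1.40 against 0.03 over all tested genes. The 6 maternally expressed genes were divided, with 3 higher, 2 lower, 1 not called and a median of 0.00. By kind of transcript, all 6 protein-coding genes were lower (median -1.50), and of the 4 noncoding RNAs 3 were higher and H19 was not called (median 0.58). A fit corrected for transcript length and GC content kept 3 higher and left 5 lower, because Peg3 was no longer called. That fit called 51.4% of 19050 tested genes, 25.8% higher and 25.6% lower. Medians in that fit were 0.24 for the maternally and -1.15 for the paternally expressed genes.

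**Figure D2:**
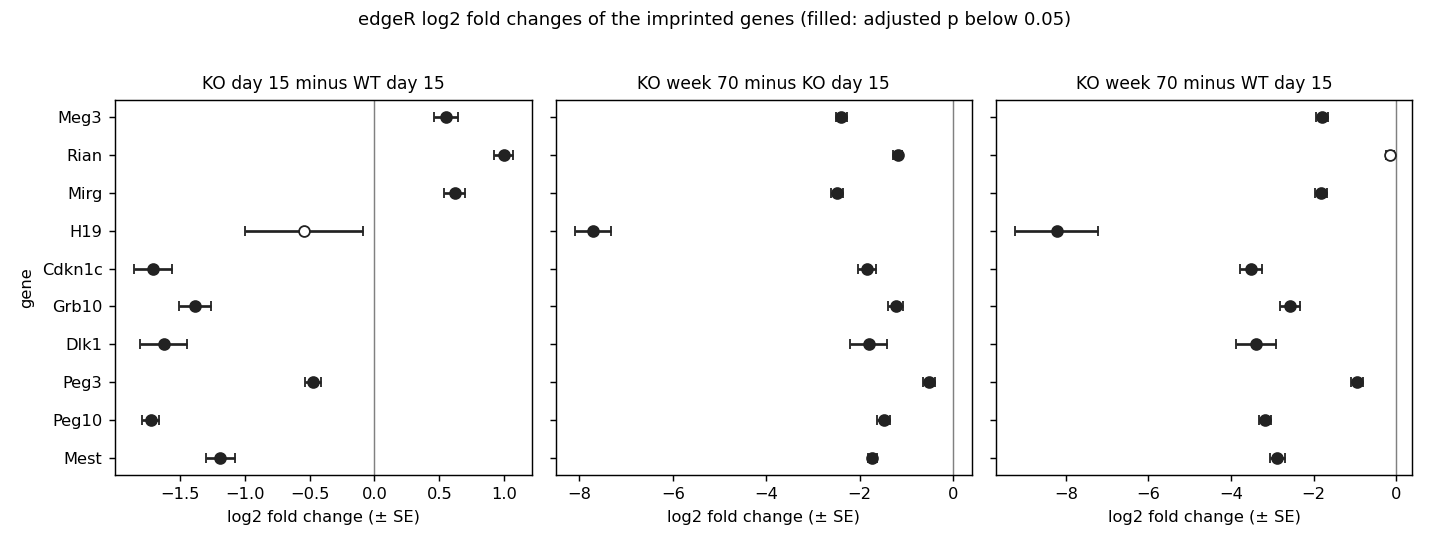
edgeR log2 fold changes of the 10 genes in the 3 comparisons, with bars of ± 1 SE. Filled circles have an adjusted p below 0.05. Each panel has its own scale, and H19 is the open circle in the fetal comparison and the lowest point in both comparisons with week 70.

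The Dlk1-Dio3 locus on chromosome 12 holds 4 of the genes. Its paternal chromosome expresses Dlk1, a membrane protein of the Notch ligand family that holds back differentiation, and its maternal chromosome expresses the noncoding RNAs Meg3, Rian (a host of small nucleolar RNAs) and Mirg (a host of microRNAs). In KO fetuses the 3 maternal RNAs were higher and Dlk1 was lower.

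Meg3 (12:109541001-109571726 on GRCm38, plus strand) had 2643, 2908 and 3493 CPM in WT fetuses and 4170, 4392 and 3892 CPM in KO fetuses. Every KO library was above every WT library. The means were 3015 ± 435 and 4151 ± 251 CPM (SD, n = 3 each), a log2 fold change of 0.55 ± 0.0939 (SE, edgeR adjusted p = 0.000471). In the corrected fit it was 1.05. Rian (12:109603940-109661716, plus strand) had 546, 544 and 626 CPM in WT and 1028, 1091 and 1094 CPM in KO fetuses. Again the groups did not overlap, and Rian was 1.99-fold higher in KO (log2 0.99 ± 0.0712, edgeR adjusted p = 7.87e-07), and the corrected log2 value was 0.69. Mirg (12:109729764-109749460, plus strand), at 24.6, 21.8 and 24.0 CPM in WT and 35.0, 35.5 and 31.1 CPM in KO fetuses, rose by a log2 value of 0.62 ± 0.0816 (edgeR adjusted p = 7.26e-05), or 1.01 corrected. The order of Rian and Meg3 by size of change was thus reversed by the correction.

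Dlk1 (12:109452823-109463336, plus strand) went the other way. It had 124, 74.5 and 85.3 CPM in WT fetuses and 29.4, 34.4 and 22.8 CPM in KO fetuses. The groups did not overlap, and the fitted level was 3.08-fold lower in KO (log2 -1.62 ± 0.182, edgeR adjusted p = 2.19e-05). The highest Dlk1 value was in WT replicate 1, the library with the high fibroblast markers, and without that library the log2 fold change was -1.40. The corrected value was -1.01.

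Within each library the ratio of Meg3 to Dlk1 counts does not depend on scaling between libraries. Its log2 value was 4.42, 5.29 and 5.36 in WT fetuses and 7.15, 7.00 and 7.42 in KO fetuses, a mean difference of 2.17 with no overlap. The ratio of Rian to Meg3 was higher by 0.44 in KO fetuses, again with no overlap. These ratios are not corrected for length and GC content, and the corrected fold changes (0.69 for Rian, 1.05 for Meg3) put Rian below Meg3 instead. Mirg and Meg3 kept nearly the same ratio, with overlapping groups and a mean difference of 0.06 that was -0.03 without WT replicate 3.

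The other imprinted genes of this locus were mixed. Dio3, the paternally expressed enzyme that inactivates thyroid hormone, was lower in KO fetuses (log2 -1.29 ± 0.223, edgeR adjusted p = 0.000499), with 23, 30 and 27 counts against 102, 66 and 72 in WT. Its neighbour Dio3os, transcribed the other way, was also lower. Rtl1, a retrotransposon-derived growth gene of the paternal chromosome, had 10.3, 8.93 and 10.2 CPM in WT and 10.6, 10.3 and 9.16 CPM in KO fetuses, which overlapped (edgeR adjusted p = 0.401), while the corrected fit gave 0.97 and called it. The exons of Rtl1 overlap microRNA genes of the opposite strand, among them Mir433 and Mir127. Whether the counting used strand is not given in the sources used here, so reads of opposite strands cannot be told apart there. Begain, which encodes a synaptic protein, had a log2 value of -0.38 (edgeR adjusted p = 0.0057) that turned to 0.51 after correction.

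The table has 51 rows between Dlk1 and Dio3, of which 12 could be tested at day 15 and 9 were higher and 1 lower in KO. Of all tested genes 30.1% were higher and 32.5% lower. The 12 rows include Meg3, Rian and Mirg themselves, and Mir341 and Mir1188 within Rian, so they are not independent of the named RNAs. Beyond the named RNAs, the noncoding rows B830012L14Rik (log2 1.75 ± 0.199, edgeR adjusted p = 2.43e-05) and Gm37899 (log2 2.06 ± 0.196, edgeR adjusted p = 6.33e-06) had larger fitted rises than Meg3 in the same fit. Both were chosen after their values were seen. The 34 rows for microRNA genes in the interval summed to 78, 82 and 78 counts across WT fetuses, 181, 156 and 153 across KO fetuses and 13 and 12 at week 70, with no row above 35 counts in a library. The WT and KO sums did not overlap. Of the microRNAs printed above, the hairpin genes of mmu-miR-341-3p and mmu-miR-1188-5p were abundant enough to be tested, and both were chosen after their values were seen. Mir341 counts were 6, 6 and 5 in WT fetuses and rose to 25, 16 and 20 in KO fetuses (log2 2.11 ± 0.372, edgeR adjusted p = 0.000589). Mir1188 counts were 18, 17 and 15 in WT fetuses against 35, 29 and 30 in KO fetuses (log2 1.19 ± 0.259, edgeR adjusted p = 0.00227). These rows lie within Rian, and reads of the host transcript and of the precursors cannot be told apart in them.

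**Figure D3:**
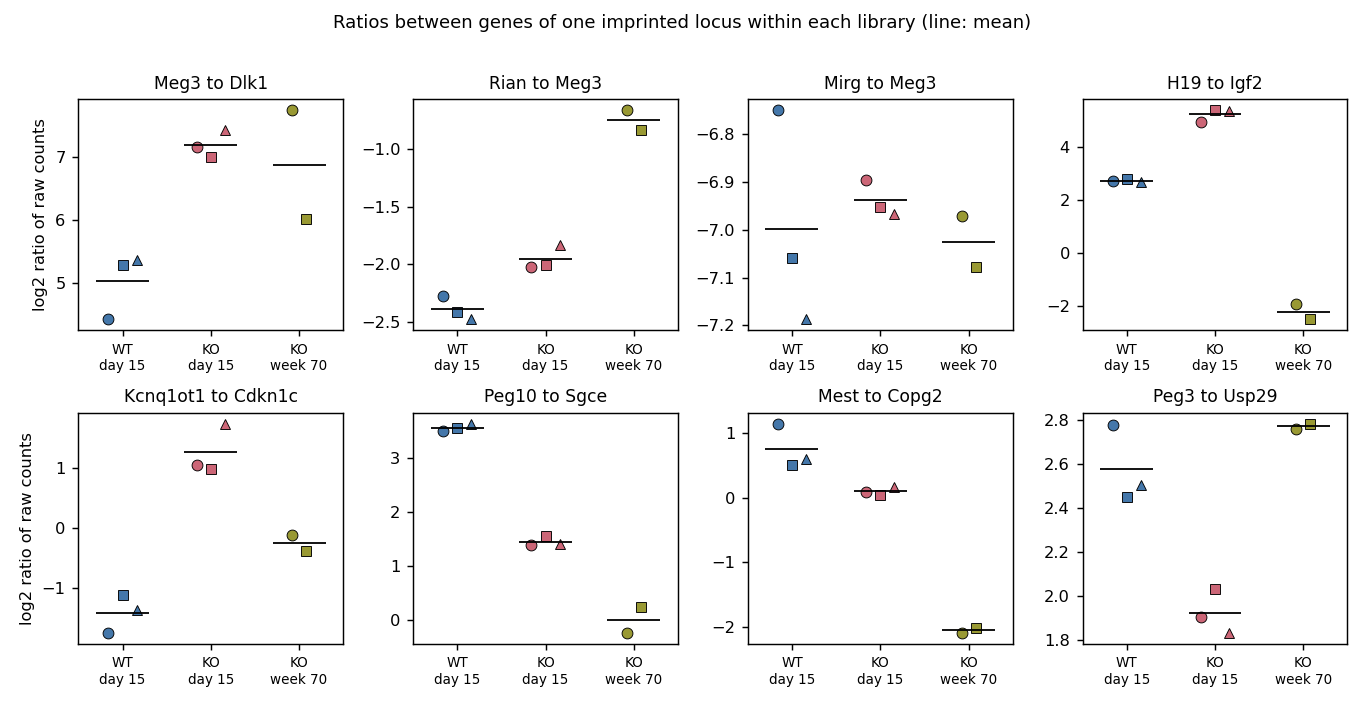
log2 ratios of raw counts between genes of the same imprinted locus within each library. Points are libraries (circles, squares and triangles for replicates 1, 2 and 3) and lines are group means. The Meg3 to Dlk1 and H19 to Igf2 ratios are higher in every KO fetus than in every WT fetus, and the Peg10 to Sgce ratio is lower.

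On distal chromosome 7, H19 and Igf2 share enhancers and are expressed from opposite chromosomes. H19 is a maternally expressed noncoding RNA and Igf2 the paternally expressed fetal growth factor. H19 (7:142575529-142578143, minus strand) had 602, 144 and 175 CPM in WT fetuses and 131, 260 and 200 CPM in KO fetuses. The groups overlapped, and the difference did not pass the test (log2 -0.55 ± 0.455, edgeR adjusted p = 0.316). Its sign rested on WT replicate 1: without that library the log2 value was 0.37 (edgeR adjusted p = 0.144).

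Igf2 was lower in KO fetuses, with 1932, 403 and 524 counts in WT against 70, 111 and 85 in KO. The fitted log2 fold change was -3.11 ± 0.523 (edgeR adjusted p = 0.000423), the lowest among the imprinted genes tested outside the 10, and it was -2.16 without WT replicate 1 and -2.36 corrected. Most of the exonic bases of Igf2, 62.8%, are also annotated to a read-through gene, so that its counts depend on how shared reads were assigned. H19 and Igf2 moved in parallel among the WT libraries, and the log2 ratio of H19 to Igf2 counts was 2.71, 2.81 and 2.70 there. In KO fetuses the ratio was 4.96, 5.41 and 5.37, higher by 2.51 on average. The ratio in WT replicate 1 was as in the other WT libraries. Both genes and the fibroblast markers were highest in that library, and the part of fibroblasts in the ratio was not tested.

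**Figure D4:**
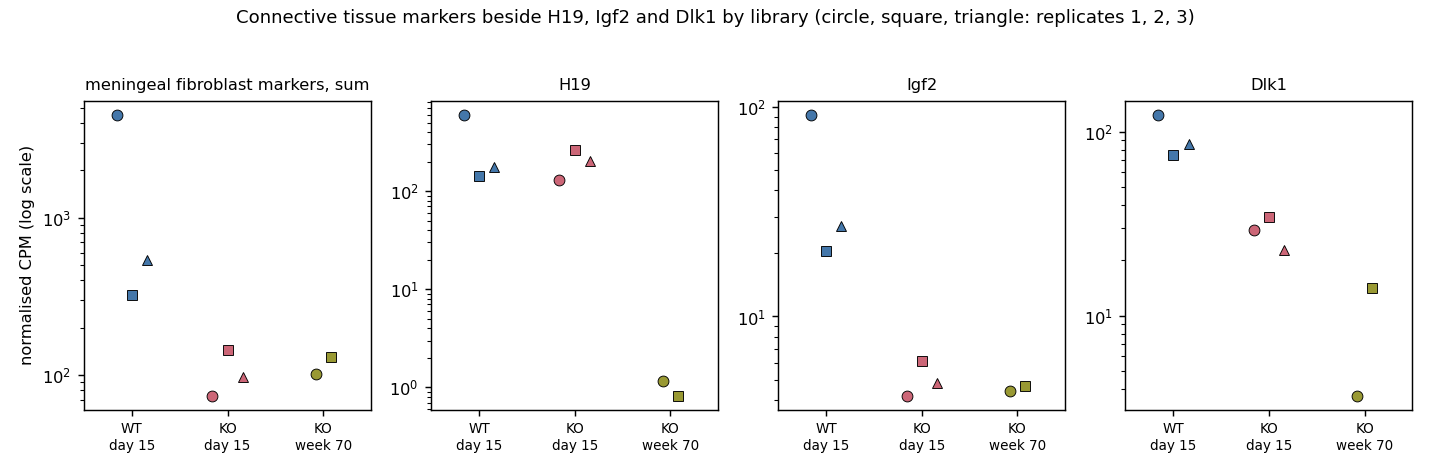
Summed meningeal fibroblast markers beside H19, Igf2 and Dlk1 in each library, in TMM-normalised CPM on log axes. Points are libraries, with circles, squares and triangles for replicates 1, 2 and 3. WT replicate 1 is highest in all 4 panels. H19 in the KO fetuses (131 to 260 CPM) overlaps the other WT libraries, and every KO marker sum is below every WT sum.

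The fibroblast markers went with genotype as well as with WT replicate 1: 7 of the 10 were lower in KO fetuses and none was higher. Col1a1, the most abundant of them in WT replicate 1, was counted 49885, 1408 and 2623 times in WT fetuses, against 77, 200 and 115 times in KO fetuses. Vascular markers also went with genotype. Of 8 endothelial markers 7 were lower in KO fetuses and none higher, with summed levels of 193 to 265 CPM in WT and 62.1 to 77.7 CPM in KO fetuses. Of 8 pericyte and smooth muscle markers 6 were lower and 1 higher, with sums of 247 to 311 CPM in WT and 158 to 169 CPM in KO fetuses. At week 70 these sums were 319 to 345 and 279 to 308 CPM. No marker of either list was at 0 in every library of a group. For comparison, 30.1% of all tested genes were higher and 32.5% lower in KO fetuses. The part of the fibroblast and vascular markers in the differences of the 10 genes and Igf2 was not tested.

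Cdkn1c (7:143458339-143461050, minus strand) lies further along the same chromosome. It encodes p57, an inhibitor of cyclin-dependent kinases that takes progenitors out of the cell cycle, and is maternally expressed. It had 176, 117 and 123 CPM in WT fetuses and 42.5, 42.7 and 34.2 CPM in KO fetuses, with no overlap. The fitted level was 3.27-fold lower in KO (log2 -1.71 ± 0.144, edgeR adjusted p = 2.57e-06), -1.52 without WT replicate 1 and -1.28 corrected. An antisense gene, Gm44732, covers 30.7% of its exonic bases but had a mean of only 1.25 counts. Kcnq1ot1, the paternally expressed noncoding RNA that silences this domain on its own chromosome, was higher in KO fetuses (log2 1.00 ± 0.110, edgeR adjusted p = 2e-05), although the corrected value was 0.16 and not called. The log2 ratio of Kcnq1ot1 to Cdkn1c counts was -1.75, -1.12 and -1.36 in WT and 1.06, 1.00 and 1.74 in KO fetuses.

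Other tested genes of these domains included Cd81 (log2 -0.72) and Th (-0.78), which were lower. Osbpl5 was also lower, at -0.36, but was 0.31 after correction. Tssc4 (-0.11) and Nap1l4 (0.03) were not called, although the corrected fit called Tssc4 higher at 0.28. In all 10 were tested in these domains, of which 1 was higher and 5 lower, 60% called against 62.6% of all tested genes. In the corrected fit 3 were higher and 3 lower.

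Peg10 and Mest, both paternally expressed, lie on chromosome 6 in separate domains, 12.5 and 13.4 Mb from the targeted Cav1 gene. Peg10 derives from a retrotransposon and is required for the placenta. Peg10 (6:4747306-4760517, plus strand) had 293, 282 and 301 CPM in WT fetuses and 82.4, 89.4 and 77.6 CPM in KO fetuses. The replicates were close and the groups far apart, with a fitted level 3.31-fold lower in KO (log2 -1.72 ± 0.0654, edgeR adjusted p = 2.1e-08), the smallest adjusted p of the 10 genes. WT replicate 1 did not stand out for this gene, and the value without it was -1.74.

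Sgce, the paternally expressed sarcoglycan gene next to Peg10, was not lower. It had 25.8, 24.0 and 24.3 CPM in WT and 31.3, 30.2 and 29.1 CPM in KO fetuses (log2 0.38, edgeR adjusted p = 0.00116), and -0.14 after correction. The log2 ratio of Peg10 to Sgce counts was 3.51, 3.55 and 3.63 in WT and 1.39, 1.57 and 1.41 in KO fetuses. Of the other genes listed for the Peg10 and Mest domains, Asb4 (-0.91), Calcr (-1.29) and Pon2 (-0.70, or -1.45 corrected) were lower. Ppp1r9a was called lower at -0.19 but higher at 0.15 in the corrected fit. Casd1 was called higher at 0.18 (edgeR adjusted p = 0.0423) although its groups overlapped, and it lost that call in 11 of 15 alternatives.

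Mest (6:30723547-30748465, plus strand), which encodes a hydrolase-like protein of mesoderm, had 228, 160 and 169 CPM in WT fetuses and 82.0, 73.4 and 74.8 CPM in KO fetuses. It was 2.28-fold lower in KO with no overlap (log2 -1.19 ± 0.115, edgeR adjusted p = 7.22e-06), -1.03 without WT replicate 1 and -1.28 corrected. Its antisense neighbour Copg2 shares 23.1% of the exonic bases of Mest and was itself lower (log2 -0.52 ± 0.0672, edgeR adjusted p = 5.85e-05). Whether the counting used strand is not given in the sources used here, so reads in the shared part cannot be assigned. The log2 ratio of Mest to Copg2 counts differed by -0.65 (KO minus WT), with no overlap.

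Peg3, on proximal chromosome 7 (7:6703892-6730431, minus strand), encodes a zinc finger protein that acts on growth and maternal behaviour. It had 457, 401 and 420 CPM in WT and 282, 297 and 284 CPM in KO fetuses, with no overlap (log2 -0.48 ± 0.0622, edgeR adjusted p = 6.78e-05). This was the weakest of the called falls, and the corrected fit gave -0.03 (edgeR adjusted p = 0.653). Its paternally expressed neighbour Usp29 had a log2 value of 0.18 (edgeR adjusted p = 0.0398) and the maternally expressed Zim1 0.31 (edgeR adjusted p = 0.0588), which the corrected fit called at 0.38. The log2 ratio of Peg3 to Usp29 counts was 2.77, 2.45 and 2.50 in WT and 1.90, 2.03 and 1.83 in KO fetuses. Of 15 tested genes within 500 kb of Peg3 outside the imprinted lists, 12 were higher and none lower, where 30.1% of all tested genes were higher. In the corrected fit 6 were higher, where 25.8% of all tested genes were higher. Such sets exist for each of the 10 genes, and the Peg3 set was picked after its values were seen. Over the neighbours of all 10 genes together, Peg3 included, 58 were tested, of which 25 were higher and 12 lower. This was 63.8% called, against 62.6% of all tested genes. The corrected fit called 14 of these pooled neighbours higher and 11 lower.

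Grb10 (11:11930508-12038683, minus strand) encodes an adaptor that restrains insulin and growth factor receptors. It had 310, 230 and 207 CPM in WT fetuses and 87.3, 93.6 and 88.0 CPM in KO fetuses. All KO libraries were lower, by a fitted 2.61-fold (log2 -1.38 ± 0.123, edgeR adjusted p = 3.9e-06), -1.22 without WT replicate 1 and -1.04 corrected. Its neighbour Cobl was also lower (log2 -0.96) and Ddc, the enzyme that makes dopamine and serotonin, was not called (-0.19, edgeR adjusted p = 0.307).

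Other imprinted genes were also called in both directions. Of 67 further listed genes in the table, 57 were tested, of which 13 were higher and 27 lower in KO fetuses. This was 70.2% called, against 62.6% of all tested genes. Their median log2 value was -0.11, against -0.87 for the 10 genes and 0.03 for all tested genes. Upper-quartile scaling gave 20 higher and 24 lower, and the corrected fit 19 higher and 20 lower. Outside the loci of the 10 genes, the smallest adjusted p-values belonged to Gab1 (log2 -1.84), Trappc9 (-2.02), Igf2r (-1.59), Peg13 (-1.17) and Gnas (-0.76), which were all lower. After correction they were -1.28, -1.35, -0.85, -0.67 and -0.03, and Gnas was no longer called. Igf2r encodes the receptor that clears Igf2 protein, and it had 140, 108 and 119 CPM in WT and 41.2, 36.2 and 37.2 CPM in KO fetuses.

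**Figure D5:**
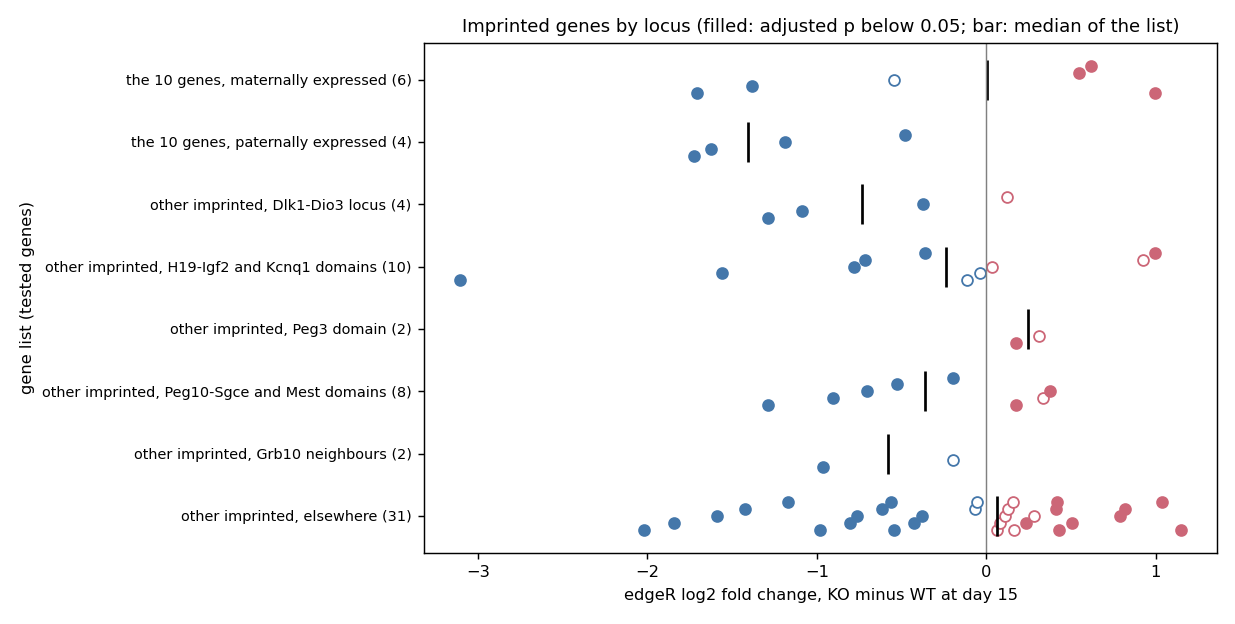
edgeR log2 fold changes of KO against WT fetuses for the 10 genes by parent of origin and for other imprinted genes by locus. Each circle is a gene, filled where the adjusted p is below 0.05, blue below 0 and red above, and vertical bars are list medians. The 4 paternally expressed genes lie below 0, with a median of -1.40, and Igf2 is the lowest circle.

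Among 12 tested genes that lay down or maintain imprints, 3 were higher and 7 lower in KO fetuses, 83.3% called against 62.6% of all tested genes. Those with the smallest adjusted p were Trim28, the corepressor recruited by ZFP57 (log2 -1.68), the maintenance methyltransferase Dnmt1 (-1.44), its partner Uhrf1 (-1.82), the methyltransferase Dnmt3a (-1.15) and Yy1 (-0.92). All were still called lower after correction, but smaller, at -0.97, -0.68, -1.36, -0.37 and -0.32. Dnmt1 had 246, 258 and 231 CPM in WT and 89.2, 87.6 and 77.4 CPM in KO fetuses. Several of these genes are also high in dividing cells. Of the 8 neural progenitor markers, 7 were lower in KO fetuses and 1, Fabp7, was higher. Among all tested genes 32.5% were lower and 30.1% higher. The corrected fit called 5 of these markers lower and 1 higher, where 25.6% of all tested genes were lower and 25.8% higher. The part of progenitors in the differences of the imprint maintenance genes was not tested.

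The second comparison set KO brains at week 70 against KO fetuses. All 10 genes were lower at week 70, where 82% of the 20000 tested genes were called in either direction, 37.6% higher and 44.4% lower. The median log2 fold change of the 10 genes was -1.77, against -0.19 over all tested genes. No week 70 value of any of them reached the KO fetal values, where 87.7% of all tested genes did not overlap, 42.2% higher and 45.5% lower. The fitted log2 changes ran from -0.52 for Peg3 to -7.72 for H19. The corrected fit called 79.8% of 19896 tested genes, 33.5% higher and 46.3% lower, and the 10 genes except Rian were lower in it.

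H19 fell furthest. It had 18 and 12 counts at week 70, or 1.16 and 0.822 CPM, against 131 to 260 CPM in KO fetuses, a fitted 210-fold decrease (log2 -7.72 ± 0.390, edgeR adjusted p = 2.03e-08), or -8.52 corrected. Igf2, by contrast, had 68 and 68 counts at week 70 and 70 to 111 in KO fetuses (log2 -0.26 ± 0.248, edgeR adjusted p = 0.348), although the corrected fit gave -1.41 and called it. The log2 ratio of H19 to Igf2 counts was accordingly -1.92 and -2.50 at week 70.

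In the Dlk1-Dio3 locus, Meg3 had 785 and 907 CPM at week 70 and fell by 2.39 on the log2 scale (SE 0.119, edgeR adjusted p = 1.76e-08). Mirg, at 6.25 and 6.72 CPM, fell by 2.48, or by 3.23 corrected. Rian fell less, to 498 and 509 CPM (log2 -1.19 ± 0.0950, edgeR adjusted p = 7.85e-07), and this call was lost in the corrected fit (-0.14, edgeR adjusted p = 0.163). The log2 ratio of Rian to Meg3 counts was -0.66 and -0.83 at week 70 against -2.02 to -1.83 in KO fetuses. All 12 testable rows between Dlk1 and Dio3 were lower at week 70, where 44.4% of all tested genes were lower. They include Meg3, Rian and Mirg, and also Rtl1 (log2 -2.63, or -3.68 corrected).

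Dlk1 differed between the week 70 libraries, with 57 and 206 counts (3.67 and 14.1 CPM). The higher value was in replicate 2, which also held the high choroid plexus and pituitary markers, and their part in it was not tested. The fitted log2 value was -1.81 ± 0.394 (edgeR adjusted p = 0.00157), -1.13 without replicate 1 and -3.05 without replicate 2, and the corrected value was -2.78. The same library was the higher for Cdkn1c (8.90 and 14.8 CPM), Grb10 (31.6 and 50.2 CPM), Peg3 (178 and 252 CPM) and Peg10 (26.4 and 37.1 CPM). Their fitted log2 values were -1.85 ± 0.192, -1.23 ± 0.158, -0.52 ± 0.129 and -1.49 ± 0.135. Without replicate 2 they were -2.24, -1.59, -0.78 and -1.74, and without replicate 1 they were -1.52, -0.93, -0.28 and -1.26. The corrected value of Cdkn1c was -2.82. Mest was alike in both libraries, at 23.7 and 25.8 CPM, and fell by 1.73 on the log2 scale (SE 0.0979, edgeR adjusted p = 4.91e-08).

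Of 59 other imprinted genes tested, 23 were higher and 25 lower at week 70, 81.4% called against 82% of all tested genes. In the corrected fit, which called 79.8% of all tested genes, 21 were higher and 30 lower. Near the 10 genes, Begain (log2 2.18), Cobl (2.61), Cd81 (2.63) and Pon2 (3.47) rose, while Kcnq1ot1 (-3.39), Zim1 (-4.22) and Asb4 (-3.29) fell. The correction kept these directions but moved Begain to 0.57, Cobl to 1.84, Pon2 to 4.30 and Kcnq1ot1 to -0.94.

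In the third comparison, of week 70 KO brains with WT fetuses, 9 of the 10 genes were lower and Rian was not called. In this comparison 78.6% of the 19465 tested genes were called, 36.7% higher and 41.9% lower. All 10 genes, Rian included, had week 70 values below every WT value, against 86.5% of tested genes with no overlap, 39.1% higher and 47.4% lower. The Rian level in WT fetuses, 544 to 626 CPM, was close to that at week 70 (log2 -0.15 ± 0.0855, edgeR adjusted p = 0.15), and its sign depended on the correction, which gave 0.56 and called it higher. The corrected fit called 78% of 19378 tested genes, 34.6% higher and 43.4% lower. For the 6 protein-coding genes the KO fetuses lay between the other groups in every case. Cdkn1c, for instance, averaged 138 ± 32.4 CPM in WT fetuses (SD, n = 3), 39.8 ± 4.87 in KO fetuses (n = 3) and 11.8 ± 4.17 at week 70 (n = 2). Meg3, Rian and Mirg were instead highest in KO fetuses. The comparisons share libraries, so the fetal and the age differences of a gene are not independent.

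Levels can be compared between genes only per length, here as CPM per kb of exonic sequence. In WT fetuses the order was Meg3 (167 ± 24.1), H19 (125 ± 104), Cdkn1c (67.8 ± 15.9), Mest (47.1 ± 9.37), Peg10 (43.8 ± 1.45), Peg3 (31.9 ± 2.14), Rian (31.4 ± 2.57), Grb10 (27.4 ± 5.94), Dlk1 (16.7 ± 4.58) and Mirg (3.21 ± 0.201), each SD with n = 3. Neighbours from Meg3 to H19 to Cdkn1c to Mest to Peg10, and Peg3 to Rian to Grb10, lay within their spread. In KO fetuses Meg3 (229 ± 13.9) and H19 (80.1 ± 26.4) still led, followed by Rian (58.7 ± 2.06). At week 70 the order began with Meg3 (46.8 ± 4.79), Rian (27.6 ± 0.427) and Peg3 (16.2 ± 3.95), and H19 was last (0.403 ± 0.0972, n = 2).

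Over the 8 libraries the genes fell into related patterns of log2 CPM, given here as descriptions because the libraries share 3 groups and a few steps set every correlation. The 6 protein-coding genes correlated with each other at Pearson r between 0.947 (Mest and Peg3) and 0.994 (Cdkn1c and Grb10). Meg3 and Mirg had r = 0.992. Rian correlated with Mirg at 0.750 and Meg3 at 0.741, and with the protein-coding genes between -0.053 and 0.091. Among 14598 genes with a mean of at least 50 counts, the most similar gene was Dnmt3a for Peg10 (r = 0.999), Gm7730 for Mirg (0.999), Gm6851 for Meg3 (0.998), Ctdsp2-ps for Cdkn1c (0.998), Recql5 for Peg3 (0.997), Cables2 for Mest (0.997), Polr1b for Grb10 (0.997), Rps27l for Rian (0.995), Wif1 for Dlk1 (0.995) and Pole2 for H19 (0.993).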

How the data were processed

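Bulk RNA-seq of 8 whole-brain libraries was used. The authors deposited raw read counts per Ensembl gene, with no normalisation per the file headers. The submitters' processing notes name FastQC, cutadapt, Trimmomatic, HISAT2, featureCounts and edgeR, and the builds GRCm38 and GRCm39, without roles, so the build and strand setting behind the counts are not given in the sources used here. Counts were tested as deposited with edgeR 4.0.16 in R 4.3.3 (filterByExpr, TMM, two-sided quasi-likelihood test, Benjamini-Hochberg, threshold 0.05), using only the libraries of the 2 groups compared. SEs derive from the F statistic. CPM values use TMM over all 8 libraries. Depth ranged from 14110031 to 20833397 counts, and 3 counts correspond to 0.144 CPM in the deepest and 0.213 CPM in the shallowest library, counting error only. No columns were left out, and no 2 libraries held identical values. Gene positions, exonic length, GC content and neighbours came from GENCODE release M 21 on GRCm38, which matched 97.3% of rows. Promoters and microRNAs came from RefSeq tables on GRCm38.p6. The scripts were tested on simulated data.

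The length and GC correction was an offset per library and gene, smoothed on both properties with mgcv 1.9.3. Other alternatives were upper-quartile or RLE scaling, testing without a filter, a mean of at least 10 counts, DESeq2 1.42.0, all 8 libraries in 1 fit, the replicate number as a block, and each library left out. Ratios are of raw counts within a library and were not tested. Genes named with values were the 10 genes, tested genes of their loci with a mean of at least 50 counts over the fetal libraries, the 5 smallest adjusted p-values among imprinted genes elsewhere and among genes of imprint maintenance with such a mean, and the closest gene by Pearson r of log2(CPM + 0.5). Genes named outside this rule are given as chosen after their values were seen. The members and lists were chosen with earlier results of these data known. Of 98 listed imprinting names 90 matched the table, and the other 8 (among them Zim2 and Peg3os) were not analysed here.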

Additional observations from a re-analysis of the deposited data

How the results depend on the processing

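In the fetal comparison the 10 genes kept their direction and side of the threshold under each scaling, filter, DESeq2 and joint-fit alternative. H19 was 0.37 without WT replicate 1, ranged from -0.90 to 0.37 over the left-out libraries and was 0.094 with the replicate block and the length and GC offset. Peg3 at day 15, and Rian for age, lost their calls in both fits with that offset. Whichever library was left out, 9 members were called at day 15 and 10 for age. The offset turned Begain to 0.51, Tssc4 to 0.28, Osbpl5 to 0.31, Sgce to -0.14 and Ppp1r9a to 0.15, and with the block added the values were 0.52, 0.28, 0.31, -0.14 and 0.15. For week 70 against WT fetuses the offset put Rian at 0.56, and at 0.62 with the block, so that 1 member was then higher in each of these fits. Upper-quartile scaling called 20 other imprinted genes higher at day 15, put Tssc4 at 0.059 and called Rian lower at week 70 than in WT fetuses (-0.28). It moved the median of all tested genes from 0.03 to 0.20 at day 15 and from -0.19 to -0.44 for age. Nap1l4 was -0.058 with no filter, -0.021 with DESeq2, -0.00585 in the joint fit and -0.030 to 0.088 over the left-out libraries, lowest without KO replicate 1 (WT replicate 1: -0.00501). The Mirg to Meg3 difference ran from -0.034 without WT replicate 3 to 0.19. Usp29 and Casd1 lost their calls in 9 and 11 of 15 alternatives. The cause of these changes was not tested.

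The deviations of same-numbered WT and KO fetal libraries from their group means correlated at r = -0.16, -0.19 and -0.18. For pairs with different numbers r was 0.07 to 0.10. Deviations within a group sum to 0, so these positive values follow from the negative ones and are not a separate observation. The labels give no link beyond the number, and what sets this pattern was not tested. With the replicate block 11184 genes were called at day 15, against 11993 without it, and 9 members, 3 higher and 6 lower, in both. Low counts, as in the microRNA rows, and the 2 libraries at week 70 limit precision.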

Other observations

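Zfp57, the zinc finger gene whose product protects imprints and whose motif was searched in the promoters, was chosen here after its values were seen. It had 6361, 6336 and 6351 counts in WT fetuses, 7180, 8015 and 7881 in KO fetuses and 79 and 47 at week 70. It was higher in KO than in WT fetuses (log2 0.56 ± 0.0608, edgeR adjusted p = 1.73e-05, 0.34 corrected), while Trim28, the corepressor it recruits, was lower. At week 70 Zfp57 was 113-fold lower than in KO fetuses (log2 -6.81 ± 0.174, edgeR adjusted p = 1.9e-10). Of the 12 imprint maintenance genes tested, 10 were lower at week 70 than in KO fetuses and 1, Yy1, was higher (log2 0.56), where 44.4% of all tested genes were lower and 37.6% higher. In the corrected fit all 12 were lower, Yy1 at -0.17 (edgeR adjusted p = 0.049).

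Snhg14, the long noncoding RNA of the Prader-Willi region on another imprinted chromosome segment, was also chosen after its values were seen. It was higher in KO fetuses, with 4646, 5211 and 5858 counts against 3537, 3635 and 3635 in WT (log2 0.82 ± 0.0849, edgeR adjusted p = 1.16e-05, 0.42 corrected). At week 70 it had 566 and 658 counts. Ndn and Snrpn were chosen in the same way. Ndn, a protein-coding gene of the same region, was lower in KO fetuses (log2 -0.81 ± 0.0852, edgeR adjusted p = 1.39e-05), and Snrpn was higher (log2 0.51 ± 0.0696, edgeR adjusted p = 0.0001) but not called after correction (0.14, edgeR adjusted p = 0.0674).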
